A study of Mus musculus with 3 samples.

Results

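The 7 genes described here, Spic, Crxos, Trpm1, Tdh, Calcoco2, Nr0b1 and 1700013H16Rik, are genes of mouse embryonic stem cells, selected on these same measurements. Each had far lower counts in cardiac precursor cultures or cardiac bodies than in stem cells, or marked precursor cells that resembled naive stem cells. They are 7 of 27886 genes listed in any of the 3 count tables. All 7 were listed for the stem cells and the precursor cells and 4 for the cardiac bodies, where Spic, Crxos and Trpm1 were not listed and so have no value. A listed gene had at least 1 count in some cell of its table. Because the values below chose the genes, they are given as a description and no test was run on them.

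The study took single cells from 3 cultures of male F1 embryonic stem cells from a cross of a C57BL/6J female with a CAST/EiJ male. The mESC group, 215 cells, was kept in 2i medium with LIF on gelatin, after a derivation on feeder cells. The CPCC group (cardiac precursor cell cultures), 175 cells, came from hanging-drop aggregates that formed embryoid bodies in medium with ascorbic acid, were dissociated, and were passaged in a medium with EGF and Fgf2, with cells of the fourth passage taken. The CB group (beating cardiac bodies), 232 cells, came from aggregates grown directly in ascorbic acid medium, of which beating ones were picked. The study worked with 3 single-cell-derived clones, and the labels do not map clones to the 8 library pools, which were 3 for mESC, 2 for CPCC and 3 for CB. There was 1 sample per group, so no difference between cultures has a replicate check, and pools are given as a spread and not as replicates. Medium and stage of differentiation changed together between mESC and the other cultures and cannot be told apart. Cells were captured on a Fluidigm C1, amplified with SMART-Seq v4 from polyadenylated RNA and sequenced from Nextera XT libraries. The median cell held 1528316 counts in mESC, 1437414 in CPCC and 1397869 in CB, with 22, 18 and 22 cells under 430000 counts. Markers of pluripotency went with the labels of the cultures. The 17 pluripotent markers summed to between 10356 and 11817 CPM (counts scaled to the same total in each culture or pool) in the mESC pools, between 1022 and 5585 CPM in the CPCC pools and, for the 12 listed there, between 188 and 467 CPM in the CB pools. Cardiomyocyte markers bore out the cardiac labels only in part. In mESC 8 of these were listed and summed to between 38.8 and 73.8 CPM in the pools. All 10 summed to between 90.9 and 172.5 CPM in the CPCC pools and between 17.5 and 1150 CPM in the CB pools.

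Naive embryonic stem cells resemble the inner cell mass of the blastocyst and are held in that state by a network of transcription factors that includes Nanog, Esrrb, Klf4 and Tfcp2l1. When they leave it, they pass through a primed state, marked by Fgf5 and Otx2, before they adopt a lineage. Beside the network itself, naive cells express a set of genes that are silent or tissue-restricted elsewhere. Spic, Crxos and Nr0b1 encode nuclear factors. Spic is an Ets-family factor related to PU.1 and best known from the iron-recycling macrophages of the splenic red pulp. Crxos is a homeobox gene beside Crx, expressed in the early embryo. Nr0b1 (also Dax1) is an orphan nuclear receptor without a DNA-binding domain of the usual kind, which acts as a repressor in the adrenal gland, in the gonad and within the stem cell network. Tdh is the mitochondrial threonine dehydrogenase, which with Gcat turns threonine into glycine and acetyl-CoA and on which mouse embryonic stem cells depend. Calcoco2 (also Ndp52) is a receptor of selective autophagy. Trpm1 is a melastatin-type cation channel of melanocytes and of retinal ON bipolar cells. 1700013H16Rik is an X-linked gene, also named Slx2 and Xlr6 in RefSeq.

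In the mouse build GRCm38 with the GENCODE M21 annotation, the genes lie on 5 chromosomes and all are annotated as protein-coding. Spic spans chr10:88674772-88685015 on the minus strand, Crxos chr7:15882617-15904020 on the plus strand, Trpm1 chr7:64153835-64269775 on the plus strand, Tdh chr14:63492347-63509092 on the minus strand, Calcoco2 chr11:96099326-96111964 on the minus strand, Nr0b1 chrX:86191764-86195947 on the plus strand and 1700013H16Rik chrX:53742901-53757831 on the minus strand. The 250 bases before the first RefSeq start site of the 5 genes with an entry (GRCm38.p6) are printed because these genes differed in their levels together, 4 of them to near 0 and Nr0b1 not, and because their content of CG dinucleotides differed. Capitals mark CG, and each sequence runs 5′ to 3′ on the strand of its gene. The stretch of Spic is chr10:88683024-88683273 (minus strand), which lies inside the span GENCODE gives the gene, since the RefSeq start is further in.
Spic: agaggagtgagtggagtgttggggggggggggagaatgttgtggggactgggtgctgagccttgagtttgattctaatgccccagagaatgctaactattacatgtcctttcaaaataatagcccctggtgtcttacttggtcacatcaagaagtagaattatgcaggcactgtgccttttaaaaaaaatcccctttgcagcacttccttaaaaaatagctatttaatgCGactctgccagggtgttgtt
The stretch of Crxos is chr7:15882367-15882616 (plus strand), before the first of 3 RefSeq start sites.
Crxos: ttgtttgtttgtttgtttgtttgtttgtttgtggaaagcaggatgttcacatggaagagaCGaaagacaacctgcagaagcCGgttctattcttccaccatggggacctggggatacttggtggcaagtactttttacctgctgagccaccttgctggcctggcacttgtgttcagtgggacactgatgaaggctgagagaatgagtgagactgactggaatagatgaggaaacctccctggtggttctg
The stretch of Trpm1 is chr7:64153585-64153834 (plus strand), before the first of 2 start sites.
Trpm1: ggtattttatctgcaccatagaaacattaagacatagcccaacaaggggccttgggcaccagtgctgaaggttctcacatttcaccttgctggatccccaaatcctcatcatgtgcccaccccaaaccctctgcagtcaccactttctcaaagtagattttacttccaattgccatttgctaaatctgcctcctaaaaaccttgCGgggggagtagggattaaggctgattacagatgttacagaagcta
The stretch of Nr0b1 is chrX:86191525-86191774 (plus strand).
Nr0b1: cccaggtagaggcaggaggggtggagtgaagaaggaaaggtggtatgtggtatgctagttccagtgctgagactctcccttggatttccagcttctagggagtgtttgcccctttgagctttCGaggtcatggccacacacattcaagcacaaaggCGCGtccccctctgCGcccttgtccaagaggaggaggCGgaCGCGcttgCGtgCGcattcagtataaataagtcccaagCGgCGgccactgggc
The stretch of 1700013H16Rik is chrX:53757832-53758081 (minus strand).
1700013H16Rik: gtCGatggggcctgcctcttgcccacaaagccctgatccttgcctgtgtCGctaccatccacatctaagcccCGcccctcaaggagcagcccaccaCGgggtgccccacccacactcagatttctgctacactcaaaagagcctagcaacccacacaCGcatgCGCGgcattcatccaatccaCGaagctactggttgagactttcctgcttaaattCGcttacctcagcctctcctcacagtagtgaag

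Spic and Trpm1 had 1 CG each in these windows and Crxos had 2, against a median of 6 in 32851 such windows of mouse genes, and 7.87% of those windows had fewer than 1 CG while 18.8% had fewer than 2. Nr0b1 with 11 and 1700013H16Rik with 9 lay above the median, with 64.4% and 59.7% of windows holding fewer. The other start sites of Crxos had 3 and 0, and the second start of Trpm1 had 4. A search of both strands for 7 short motifs found few matches. TATAAA, the core of a TATA box, stood 32 bases before the start of Nr0b1, and 12.4% of all windows hold it. TAATCC, bound by Crx and Otx homeodomains, stood 34 bases before the first start of Trpm1 (6.25% of windows). CATGTG, the letters of the Mitf M-box core, stood 141 bases before the same start of Trpm1 and 203 before that of Crxos (12.25% of windows). None of the letters ATTTGCAT (octamer, 1.60% of windows), CATTGTT (Sox, 3.29%), TCAAGGTCA (Esrrb, 0.387%) or GAGGAAGT (PU.1, 2.44%) occurred in any of the 8 windows, and Spic and 1700013H16Rik matched none of the 7.

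In mESC the 7 genes fell into an abundant pair, a middle group and a patchy gene. Levels are CPM of the counts summed over the cells of a culture, with 95% Poisson intervals that cover counting error only, and a gene counts as detected in a cell with 1 or more counts. Per kilobase of exon, Calcoco2 stood at 372 and Tdh at 287 CPM per kb, Nr0b1 at 66.2, 1700013H16Rik at 39.6, Spic at 23.4, Crxos at 20.7 and Trpm1 at 2.62. On this scale Calcoco2 stood above Tdh in each pool, though their ranges over pools overlapped, Nr0b1 came after both and Trpm1 last in every pool, and 1700013H16Rik, Spic and Crxos changed places between pools, so those neighbours did not differ beyond their spread.

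Tdh had 751 CPM in mESC (748.5 to 754), with 986, 699 and 570 CPM in pools 1 to 3. The median mESC cell had 768 CPM of Tdh and the highest 1662, and the gene was detected in 204 of 215 cells (94.9%, exact Clopper-Pearson interval 91.0 to 97.4). Almost every stem cell therefore carried Tdh counts, and the level was lowest in pool 3. In CPCC the summed level of Tdh was 184 CPM (182 to 186), with 346 CPM in pool 1 and 31.9 in pool 2, and 81 of 175 cells (46.3%, 38.7 to 54.0) had a count. The median CPCC cell had 0 CPM of Tdh and the highest 1503, close to the highest stem cell, so that the 2 cultures overlapped in single cells while no CPCC pool reached the lowest mESC pool. In CB it was 11.1 CPM (10.7 to 11.4), all of it from pool 2 at 28.3 CPM, with 31 of 232 cells detected (13.4%, 9.26 to 18.4). Of these cells 7 had 5 or more counts, and 6 held between 179 and 717 CPM while the rest had 6 counts or fewer. Those 6 cells had counts for 3 to 6 of the 12 pluripotent markers listed in CB.

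Calcoco2 had 602.5 CPM in mESC (600 to 605), with 976 CPM in pool 1, 454 in pool 2 and 400 in pool 3, and was detected in 204 of 215 cells (94.9%). The median stem cell had 571 CPM of Calcoco2 and the highest 2711. Pool 1 was thus set apart from the other mESC pools, more so than for Tdh. In CPCC the level of Calcoco2 was 63.7 CPM (62.8 to 64.7), with 121 CPM in pool 1 and 9.75 in pool 2, and 47 of 175 cells (26.9%, 20.4 to 34.1) had a count. The highest CPCC cell had 1374 CPM. In CB a single cell, of pool 3, held all 122 counts (82.2 CPM in that cell), which makes 0.361 CPM for the culture (0.300 to 0.431).

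Nr0b1 had 120 CPM in mESC (119 to 121), with 144, 121 and 92.2 CPM in the pools, and was detected in 168 of 215 cells (78.1%, 72.0 to 83.5). The median stem cell had 84.1 CPM of Nr0b1 and the highest 771. In CPCC it had 87.4 CPM (86.3 to 88.5), the smallest distance from mESC of the 7 genes, but with 173 CPM in pool 1, above every mESC pool, and 7.01 CPM in pool 2, below every mESC pool. It was detected in 65 of 175 CPCC cells (37.1%, 29.97 to 44.8), the highest at 970 CPM. In CB 1 cell of pool 2 held all of its 374 counts (147 CPM), for a level of 1.11 CPM (0.996 to 1.22).

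Spic had 89.7 CPM in mESC, with 118, 71.7 and 83.9 CPM in the pools, and was detected in 183 of 215 cells (85.1%, 79.6 to 89.6). The median stem cell had 61.5 CPM of Spic and the highest, among cells with 10000 counts or more, 444 (a cell of only 994 counts stood at 1006). In CPCC its pools stood at 0.997 and 0.421 CPM (0.699 CPM over both, 0.604 to 0.805), and 6 of 175 cells (3.43%, 1.27 to 7.31) had counts, between 12 and 60 in each, or 7.98 to 51.1 CPM. No CPCC cell reached the median of the stem cells. Each of these 6 cells also had counts for 15 or more of the 17 pluripotent markers, and 5 came from pool 1.

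Crxos had 61.1 CPM in mESC (60.3 to 61.9), with pools at 61.3, 54.7 and 69.4 CPM, and was detected in 176 of 215 cells (81.9%, 76.0 to 86.8). The median stem cell had 39.4 CPM of Crxos and the highest 318. In CPCC it had 0.721 CPM (0.624 to 0.828), with 1.32 CPM in pool 1 and 0.161 in pool 2. Its 17 CPCC cells with a count (9.71%, 5.76 to 15.1) were more than those of Spic, but each held little, 28.2 CPM at most.

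Trpm1, the least abundant per length, had 38.6 CPM in mESC (38.0 to 39.3), with 38.3, 47.7 and 26.9 CPM in the pools and 141 of 215 cells detected (65.6%, 58.8 to 71.9). The median stem cell had 11.9 CPM of Trpm1 and the highest 726. In CPCC it had 0.888 CPM (0.780 to 1.01), with 1.83 CPM in pool 1 and 0.00702 in pool 2, and 10 of 175 cells had a count (5.71%, 2.77 to 10.3). The highest CPCC cell had 72.8 CPM, from 32 counts, and another cell, at 57.2 CPM, held 104 of the 245 Trpm1 counts of the culture.

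1700013H16Rik was patchy already in mESC. It had 48.5 CPM (47.8 to 49.2), with 91.0 CPM in pool 1, 33.8 in pool 2 and 22.6 in pool 3, and was detected in 96 of 215 cells (44.7%, 37.9 to 51.6), so that the median cell had 0 CPM and the highest 541.5. In CPCC 2 of 175 cells had a count and 1 of them held 97.5% of the 40 counts, for 0.145 CPM (0.104 to 0.197). In CB it had 1.98 CPM (1.83 to 2.14), from 3 cells of pool 2 with 18.3, 164 and 199 CPM, all below the highest stem cell. It was the only 1 of the 4 genes listed in all tables with a higher level in CB than in CPCC.

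**Figure D1:**
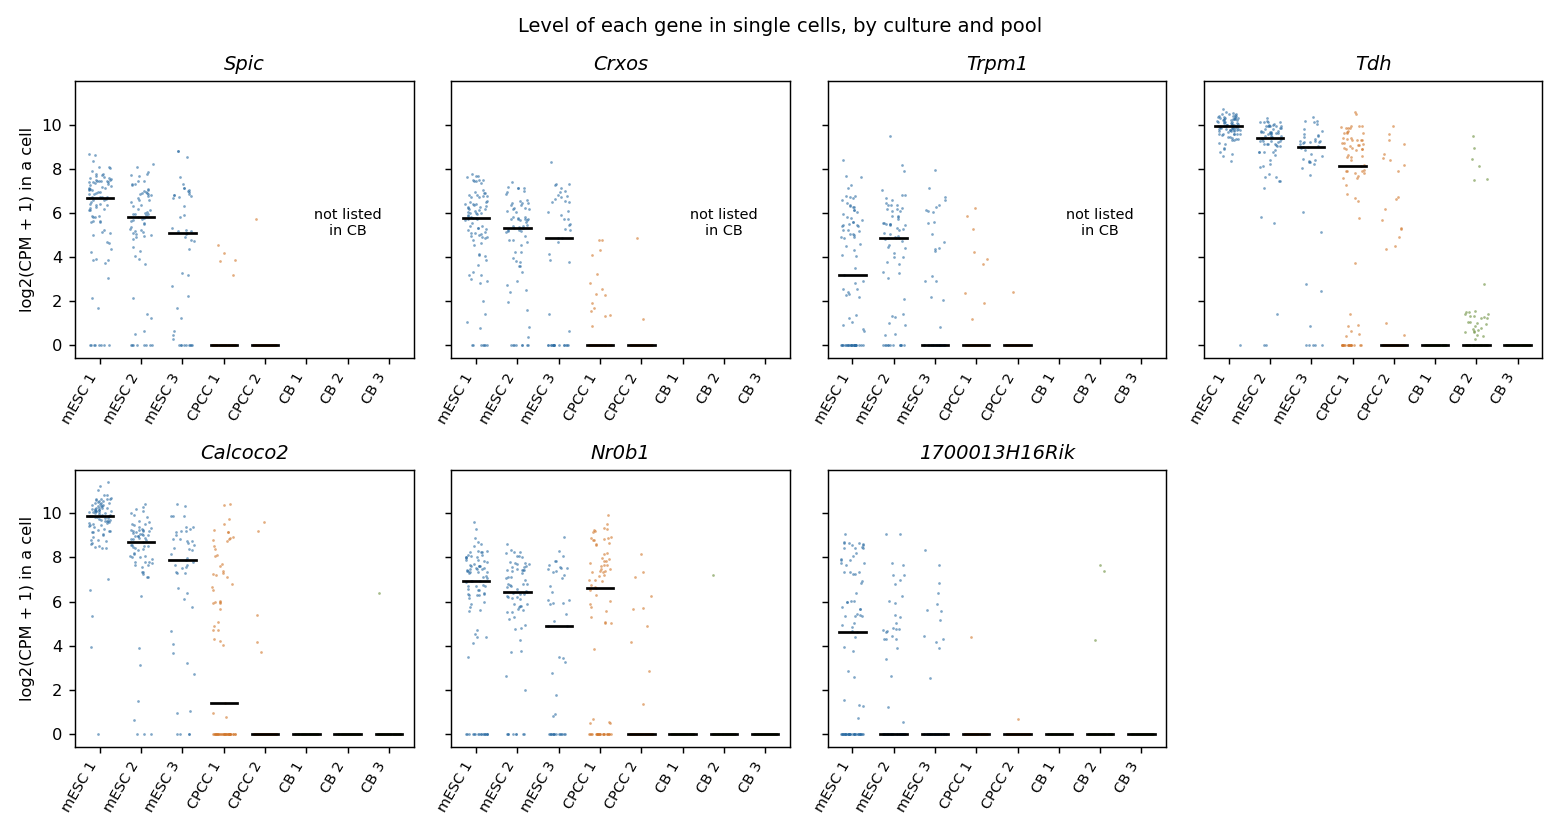
Level of each gene in each cell, as log2(CPM + 1), by culture and pool, for cells with 10000 counts or more; each point is 1 cell and the black bar is the median of the pool (a bar at 0 covers cells without counts). Most mESC cells lie high for Tdh and Calcoco2, the CPCC cells of pool 1 split into a high and a low group for Tdh, Calcoco2 and Nr0b1, and nearly all CPCC cells lie at 0 for Spic, Crxos, Trpm1 and 1700013H16Rik.

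The share of cells with a count depends on depth. After each cell was thinned to 430000 counts, with shallower cells left out (193 mESC, 157 CPCC and 210 CB cells kept), Spic was detected in 86.5% of mESC and 3.82% of CPCC cells, Crxos in 85.5% and 8.28%, Trpm1 in 64.2% and 4.46%, Tdh in 97.9% and 47.1%, Calcoco2 in 96.4% and 26.1%, Nr0b1 in 81.3% and 36.9%, and 1700013H16Rik in 44.0% and 0.637%. Of 210 CB cells 8.10% had Tdh. Taken as a ratio to the share at the deposited depth, Tdh in CB and 1700013H16Rik in CPCC, the latter from 2 cells to 1, moved most.

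Counted over the 7 genes, 87.9% of mESC cells (82.8 to 92.0) had 4 or more of them detected, and 60 of 215 had all 7. In CPCC this held for 10.3% of cells (6.21 to 15.8), none had more than 5, and 86 of 175 cells had none. Without CPCC pool 1 the share with 4 or more was 2.08%, and without pool 2 it was 20.3%. In CB, where only 4 genes could count, 197 of 232 cells had none and 1 cell had 2.

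**Figure D2:**
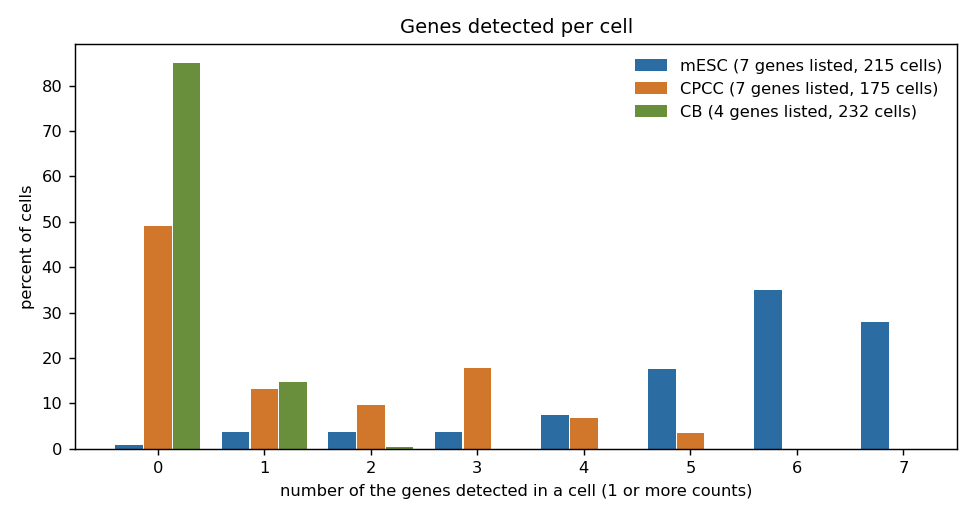
Number of the 7 genes detected with 1 or more counts in each cell (horizontal axis, of 4 listed in CB) against the percent of cells of the culture (bars from 0). The mESC bars peak at 6 genes, and the CPCC and CB bars peak at 0.

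Set against all genes, the log2 ratio of CPCC over mESC, computed on CPM plus a pseudocount of 1, was -5.74 for Spic, the lowest of 8649 genes with 10 CPM or more in mESC. 1700013H16Rik at -5.43, Crxos at -5.17 and Trpm1 at -4.39 ranked 2, 3 and 5, and Gm12463 (-4.56) stood between the last pair. Calcoco2 at -3.22 ranked 30 and Tdh at -2.02 ranked 149. Nr0b1 at -0.45 ranked 2547, which does not go with the description of a gene lost most in CPCC. Its ratio over pairs of 1 CPCC and 1 mESC pool ran from -4.18 to 0.90, below 0 in 3 of 6 pairs, whereas each of the other 6 genes was below 0 in 6 of 6 pairs. Tdh, which came closest to 0 of those, ran from -4.91 to -0.72, Calcoco2 from -6.51 to -1.71, and Spic, with the narrowest range, from -6.38 to -5.19. The median of the 7 ratios was -4.39, beside -0.13 over the 8649 genes and -0.02 over all 20272 genes listed in both tables.

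At least 4-fold lower in CPCC were 6 of the 7 genes, beside 1.80% of the 8649 genes, a share from which nothing is read because the genes were taken from this contrast. Tdh was just inside the 4-fold line, between H2-M6-ps at -2.03 and Baz2b at -2.02, and it was outside at -1.12 without CPCC pool 2 and at -1.80 without mESC pool 1. Nr0b1 without CPCC pool 2 was at 0.53, and without pool 1 at -3.91. The 2 CPCC pools also differed in other cells, since the 10 macrophage markers summed to 16.6 CPM in one and 4842 CPM in the other, and the part of this in the ratios was not tested.

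In CB, which was compared with the same mESC cells, the ratio of Calcoco2 was -8.79, rank 2 of 8577 genes after Nanog at -8.81. Tdh was at -5.96 (rank 31), Nr0b1 at -5.84 (rank 39) and 1700013H16Rik at -4.05 (rank 108). All 4 listed genes were at least 4-fold lower, beside 5.85% of the 8577 genes. Their median was -5.90 beside -0.13 over the 8577 genes and 0.13 over all 19855 listed in both tables. Nothing is read from this count or these ranks, because falls in CB were also a ground for selecting the genes. Each was below 0 in 9 of 9 pairs of pools, with 1700013H16Rik closest to 0, from -6.52 to -1.96, and the widest range for Tdh, from -9.95 to -4.28. Nr0b1, which was near its mESC level in the CPCC sum, was far below it in CB.

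**Figure D3:**
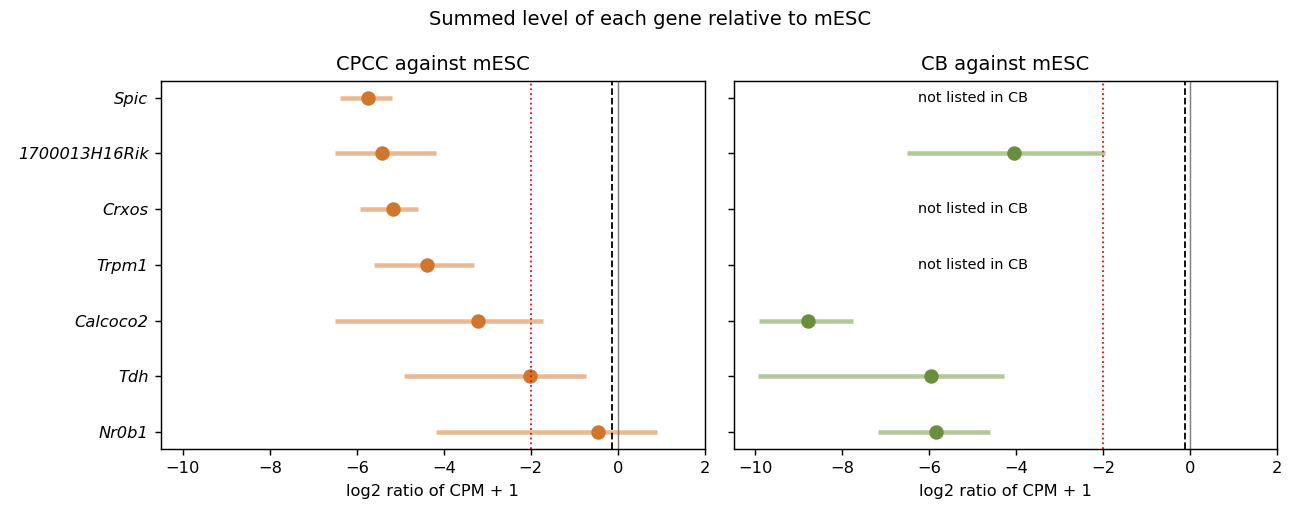
log2 ratio of each gene in CPCC and in CB over mESC, on CPM + 1 (dots), with bars from the lowest to the highest ratio over pairs of pools, the dashed line at the median of all genes with 10 CPM or more in mESC and the red dotted line at 4-fold lower. Spic, 1700013H16Rik, Crxos and Trpm1 lie lowest in CPCC, the bar of Nr0b1 crosses 0, and Calcoco2 lies lowest in CB at -8.79.

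Where the remaining CPCC counts lay was asked by clustering the CPCC cells with the 7 genes left out of the clustering genes. Of 5 clusters, 1 of 66 cells had counts for 15 of the 17 pluripotent markers in most of its cells and is called pluripotent-like. The genes that led it by fold were Tdh, Dnmt3l, Hsd17b14, Dppa5a, Nr0b1, Zfp42, Zfp980, Calcoco2, Ooep and Tex19.1, and 57 of its cells came from pool 1 and 9 from pool 2. It held 98.4% of the summed CPCC counts of the 7 genes, and per gene between 96.7% (Trpm1) and 100% (Spic and Crxos). Beside them, it held 96.4% of the CPCC counts of Esrrb, 95.6% of those of Zfp42 and 83.0% of those of Nanog. The shares of the 7 genes are a description, since these were selected partly for marking such cells. The other 109 CPCC cells had 0 counts of Spic and of Crxos, where 0 of 109 cells allows a share of cells with a count of up to 2.75% (3 cells of 109; 3.33% by the Clopper-Pearson interval), and they had 5.64 CPM of Tdh, 1.45 of Nr0b1, 1.27 of Calcoco2, 0.0459 of Trpm1 and 0.00574 of 1700013H16Rik.

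Within the pluripotent-like CPCC cells the 7 genes ranged from above their mESC level to almost none. Nr0b1 stood above it in the cells of pool 1 and below it in those of pool 2, Tdh stood somewhat below and Calcoco2 well below. Tdh had 489 CPM there, 65.1% of the mESC level, and was detected in 65 of 66 cells, with 489 CPM in the cells of pool 1 and 485 in those of pool 2. Nr0b1 had 234 CPM, 196% of the mESC level, in 56 of 66 cells, with 245 CPM in the cells of pool 1 and 102, or 84.8% of the mESC level, in those of pool 2. Calcoco2 had 170.5 CPM, 28.3% of the mESC level, in 43 of 66 cells, with 169.5 and 183.5 CPM by pool and a median cell of 36.6 CPM, against 571 in mESC. Of the 17 pluripotent markers, Nanog, Zfp42 and Esrrb were taken as naive references. They stood at 64.7%, 79.8% and 68.2% of their mESC levels in the same cells, and the share for Tdh lay among theirs. For the other markers the level in these cells is not given, so this place holds for the named markers only. Over all CPCC cells, Tfcp2l1, Prdm14 and Tcl1 had 24.5, 7.56 and 26.7 CPM, against 368, 77.0 and 215 in mESC. Utf1 was above its mESC level there, at 224 against 183 CPM, while 16 of the 17 were below.

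Spic, Crxos, Trpm1 and 1700013H16Rik were at 6.03% of their mESC levels or less over these 66 cells. Spic had 1.90 CPM there (1.64 to 2.18), 2.11% of the mESC level, in 6 of 66 cells (9.09%, 3.41 to 18.7). By pool it had 1.41 CPM in 57 cells of pool 1 and 8.14 CPM, 9.07% of the mESC level, in the 9 cells of pool 2, there from 1 cell. Crxos had 1.95 CPM, 3.20% of the mESC level, in 17 cells (25.8%, 15.8 to 38.0), with 1.86 and 3.12 CPM by pool. Trpm1 had 2.33 CPM in 8 cells, and 1700013H16Rik had 0.383 CPM, 0.790%, in 1 cell, all of pool 1. The log2 ratios over mESC of these 4 genes, from -5.16 to -3.57, ranked 1, 2, 4 and 9 of 8649, against 202 for Calcoco2 at -1.81, 1388 for Tdh at -0.62 and 8380 for Nr0b1 at 0.96. Beside these 4 of 7 genes, 1.82% of the 8649 genes were at least 4-fold lower, and the median over those 8649 genes was -0.05. The median cell of the cluster held 1433676 counts, near the 1528316 of mESC.

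The genes were also counted cell by cell, in 2 sets formed after their values were seen. Any of Spic, Crxos, Trpm1 and 1700013H16Rik had a count in 200 of 215 mESC cells (93.0%, 88.8 to 96.0) and in 26 of 66 pluripotent-like CPCC cells (39.4%, 27.6 to 52.2), and 2 or more of them in 183 and 6 cells. Any of Tdh, Calcoco2 and Nr0b1 had a count in 211 of 215 and 65 of 66 cells, and all 3 together in 163 (75.8%) and 40 (60.6%). After thinning to 430000 counts these shares were 96.9% and 33.3% for any of the 4 genes, 99.0% and 98.4% for any of the 3, and 79.8% and 54.0% for all 3 together. In the 9 pluripotent-like cells of pool 2, 3 had a count of any of the 4 genes and 3 had all of Tdh, Calcoco2 and Nr0b1 together. Tdh had a count in all 9 of them, Nr0b1 in 4 and Calcoco2 in 3.

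**Figure D4:**
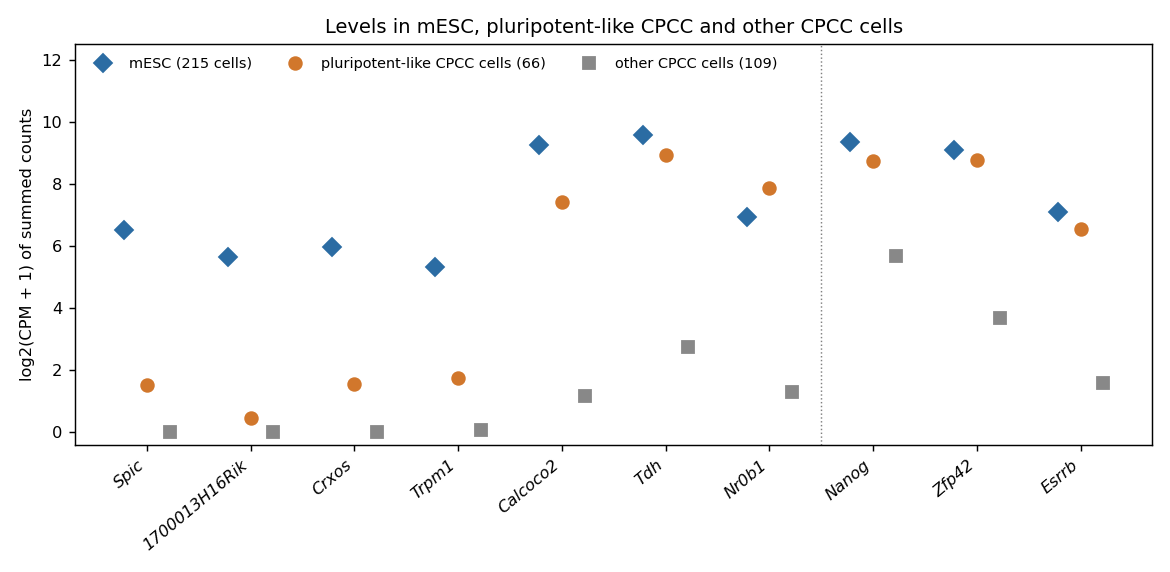
Level, as log2(CPM + 1) of summed counts, of the 7 genes and of 3 naive markers (right of the dotted line) in mESC, in pluripotent-like CPCC cells and in the other CPCC cells. In the pluripotent-like cells Nr0b1 lies above mESC (below it in the 9 cells of pool 2 alone). Tdh and these 3 of the 17 pluripotent markers lie a little below mESC and Calcoco2 lower, at 28.3% of its mESC level. Spic, 1700013H16Rik, Crxos and Trpm1 lie below 2 on this scale.

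A second CPCC cluster carried part of the pluripotent programme with few of these genes. Its 29 cells, 27 of them from pool 2, had counts for 8 of 17 pluripotent and 8 of 10 primed-state markers in most cells, and Fgf5, Lefty1 and Fgf8 were among its leading genes, so it was left unnamed. Nanog stood at 235 CPM there and was detected in 25 of 29 cells, and Lefty1, a Nodal antagonist, at 536 CPM. Zfp42 and Esrrb were low, at 49.3 and 7.76 CPM with median cells of 0.985 and 0 CPM, against 548 and 134 CPM in mESC. Tdh was low as well, at 23.1 CPM with a median cell of 0. Nr0b1 was at 3.33 and Calcoco2 at 3.12 CPM, and Spic, Crxos and Trpm1 had 0 counts in all 29 cells. Its median depth of 805488 counts was below that of the pluripotent-like cluster, and the part of this in the shares of cells was not tested. The cluster of 36 cells led by Mgp and Lox had 0.0297 CPM of Tdh and 0 counts of the other 6 genes, and the 30 cells led by Acta1 and Krt8 had 4.94 CPM of Tdh, 3.39 of Nr0b1 and 2.79 of Calcoco2. The 14 cells led by Lyz2 and C1qa, all of pool 2, had 0 counts of all 7, among them Spic, the gene known from macrophages.

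**Figure D5:**
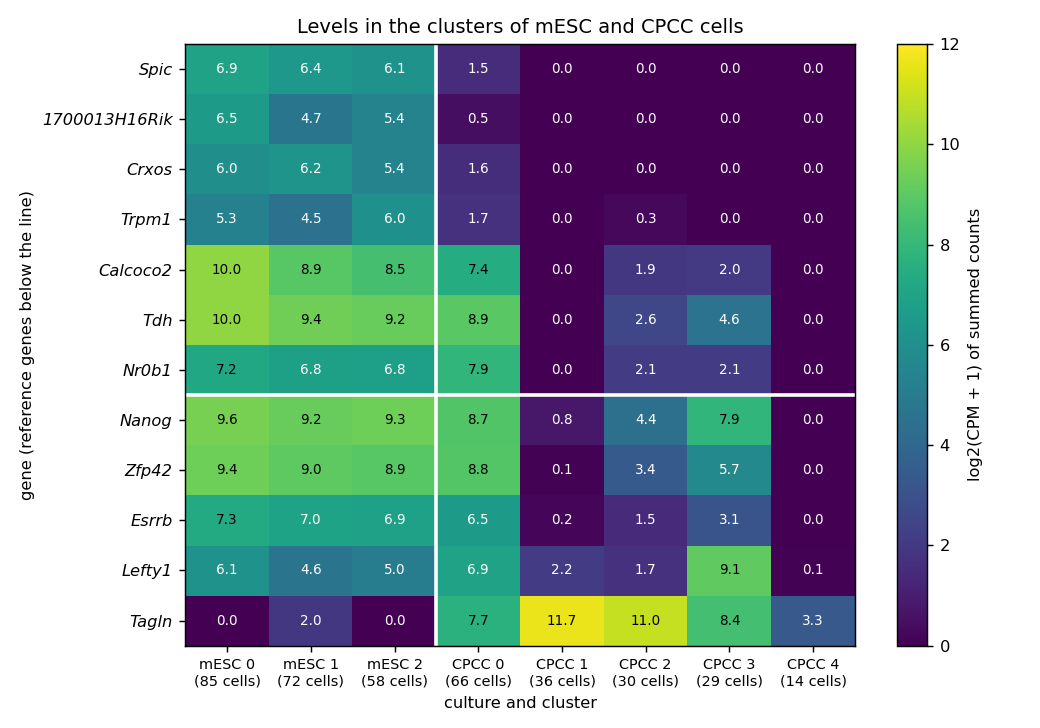
Heat map of log2(CPM + 1) of summed counts for the 7 genes and the reference genes Nanog, Zfp42, Esrrb, Lefty1 and Tagln (rows) in the 3 mESC and 5 CPCC clusters (columns, with their numbers of cells). All 7 genes lie above 4 in the mESC columns, and in CPCC only Tdh, Calcoco2 and Nr0b1 of the 7 exceed 7 on this scale, in the pluripotent-like column of 66 cells, while Nanog also does so in the column of 29 cells.

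Among stem cells the 3 mESC clusters were all pluripotent-like, and 1 of them, of 85 cells with 83 from pool 1, had Calcoco2 and 1700013H16Rik among its 10 leading genes along with Id3 and Cdx1. Pool and cluster cannot be told apart there. Over the 193 mESC cells with 430000 counts or more, which share libraries and pools, Spearman's rho between pairs of the genes was highest for Tdh with Calcoco2 at 0.52, for Crxos with Calcoco2 at 0.47 and for Spic with Calcoco2 at 0.46, and Trpm1 lay between -0.04 and 0.12 with every other gene. The pools differed in level, so the pairs were also taken within pools 1 to 3 (79, 70 and 44 cells). Tdh with Calcoco2 was then at -0.08, 0.46 and 0.66, so this relation did not hold within pool 1. Crxos with Calcoco2 was at 0.32, 0.50 and 0.74, and Spic with Calcoco2 at 0.21, 0.47 and 0.63. Trpm1 had no rho above 0.09 with another of the genes in pool 1 or above 0.06 in pool 2, and reached 0.39 with Spic in pool 3. Over 157 CPCC cells the pairs of Tdh, Calcoco2 and Nr0b1 lay between 0.66 and 0.78, and between 0.44 and 0.68 within the pools, across a mixture of cell types. With depth, rho lay between -0.18 and 0.18 for all 7 in mESC.

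The genes most like each of the 7 over mESC cells were in part relatives in sequence. Gm13929, a processed pseudogene, went with Tdh at rho 0.95 and shares 17.1% of the 31-base words of Tdh transcripts. Gm11701 (0.93) and Gm9697 (0.77) went with Calcoco2 and share 14.5% and 10.8% of its words, and Gm4222 (0.79) and E530001F21Rik (0.56) went with Crxos and share 6.95% and 14.3%. Olfr1270 went with Crxos at 0.71 and shares 238 such words with it on the opposite strand only. For these pairs the reads of the copies cannot be told from those of the gene in the shared stretches, and the levels of Tdh, Calcoco2 and Crxos are uncertain to that extent. The copies were lower in CPCC as well, Gm13929 with 74.9 CPM in mESC, 17.1 in CPCC and 0.799 in CB and Gm11701 with 19.0 in mESC and 1.68 in CPCC. Spic shared 5.20% of its words, with 190 genes, and Trpm1 0.690%, with 1139 genes, so their levels carry the same uncertainty over a smaller share. Nr0b1 and 1700013H16Rik shared no such word with another transcript. Of partners without this limit, Ckb went with Calcoco2 at 0.68 (0.48 to 0.60 within pools), Tuba1b and Ddx39b with Tdh at 0.62 and 0.59 (0.28 and 0.13 within pool 1), and Gabarapl2, of the autophagy machinery, with 1700013H16Rik at 0.46 (0.26 to 0.52 within pools). The closest partners of Trpm1 (Erich1, 0.36) and of Nr0b1 (Slc7a3, 0.40, after Gm13929) were weak. In CPCC, Morc1 went with Tdh at 0.90 (0.76 and 0.84 within pools) and with Nr0b1 at 0.81 (0.65 and 0.53). Khdc3 went with Calcoco2 at 0.79 (0.71 and 0.55). These values were taken across a mixture of cell types. The exons of Tdh overlap those of the antisense gene Gm17232 by 66 bases, and whether the counting used strand was not given in the sources used here.

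Lists of genes around the 7 were set beside them. Of 17 pluripotent markers, 16 had a lower level in CPCC and 5 were at least 4-fold lower, beside 1.80% of all genes, with a median log2 ratio of -1.79. The lowest were Tfcp2l1 at -3.86, Prdm14 at -3.19 and Tcl1 at -2.97, and the highest were Utf1 at 0.29, Klf2 at -0.88 and Pou5f1 at -0.97. Of the 10 primed-state markers none of 6 that could be called was 4-fold lower, 1 of 8 was 4-fold higher, beside 8.37% of all genes, and the median was 1.12. They did not move together, with 4 below 0 and 6 above. The lowest were Lefty2 at -1.82, Otx2 at -0.80 and Nodal at -0.67, and the highest were Fgf5 at 4.17, Pou3f1 at 1.85 and Dnmt3a at 1.79.

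Around Tdh, the enzymes of threonine, glycine and one-carbon metabolism had a median of -0.43 over 17 genes, and 0 of 16 that could be called were 4-fold lower, a count that is not far from the 1.80% of all genes. Gcat, which acts directly after Tdh, was at -1.41, beside Amt at -1.55 and Shmt1 at -1.01, and Mat2a was the highest at 0.45. Around Calcoco2, the 16 selective autophagy genes had a median of 0.09, 12 of them above 0, with Ulk1 lowest at -1.78, Gabarapl2 at -1.62, and Gabarap highest at 1.82. Calcoco2 itself, at -3.22, lay below each of these 16, but it was selected on such falls and nothing is read from its place.

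Few relatives of Spic, Trpm1, Nr0b1 and Crxos were measured at a level that could be called. Spi1, which encodes PU.1 and drives macrophage genes, was at 4.26 in CPCC against mESC, the iron exporter Slc40a1 at 5.50 and Hmox1, which degrades haem, at 1.17. The macrophage markers summed to 16.6 CPM in one CPCC pool and 4842 in the other, and the 14 cells led by Lyz2 and C1qa were all of pool 2. The part of these cells in the 3 ratios was not tested. Slc40a1 was also above its mESC level in the pluripotent-like cells, at 34.5 against 0.142 CPM, with counts in 27.3% of them and a median cell of 0 CPM. Blvrb, a biliverdin reductase, was at -0.80 and the haem-responsive repressor Bach1 at -0.69. Of melanocyte genes and Trpm channels, Mitf, the regulator of melanocytes, was at -2.06 and Trpm7, which most cells express, at -0.40, while the melanin enzyme gene Dct was at 0.03 and Trpm2 at 0.55. Nr6a1, a nuclear receptor of early embryos, was at 0.55. The X-linked homeobox genes Rhox5, Rhox6 and Rhox9 were at -1.36, 0.79 and 1.52.

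The nearest listed genes on the chromosome had ratios of both signs. Fam167a, Gm6964, Mageb4 and Zfp36l3 had only 0.0313, 0.318, 0.199 and 0.214 CPM in mESC. With a pseudocount of 1 CPM their ratios could not be low, so nothing is read from them. Around Spic, Chpt1 was at -0.81 and Arl1 at 0.44, and around Trpm1, Klf13 was at 0.22 and Mtmr10 at 0.97. Tdh lay between Fam167a at 1.56 and Mtmr9 at 0.17, and Nr0b1 between Gm6964 at -0.09 and Mageb4 at 0.17, both near 0 CPM. Calcoco2 had neighbours on the lower side, Atp5g1 at -1.12 and Ttll6 at -1.52, the latter with 2.55 CPM in mESC and 0.236 in CPCC. Obox6, 42.9 kb from Crxos, was at -1.98, with 4.89 CPM in mESC and 0.489 in CPCC, while Selenow on the other side was at 1.11. 4930502E18Rik, 4.46 kb from 1700013H16Rik, was at -1.93, with 6.19 and 0.891 CPM, and Zfp36l3 on the other side was at 1.96.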

How the data were processed

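Single-cell RNA-seq of mESC, CPCC and CB cells was used as 3 tables of genes by cells. Per the study's methods, the authors aligned the reads of each cell to GRCm38 release 97 (mm10) with STAR 2.7 in Partek Flow, and the counting model and use of strand were not given in the sources used here. The deposited mESC and CB tables hold estimated counts, 24.3% and 24.6% of whose values above 0 were not whole (tolerance 0.01), and the deposited CPCC table holds whole-number counts, which may be rounded estimates. Each table lists genes that reached 1 count in some cell. From the CPCC file 208 rows without a gene name and 23 rows whose names had become dates (0.139% of counts together) were left out, and 2 columns that matched no sample were not used.

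The counts of all cells of a culture or pool were added up and scaled to CPM of that sum, and log2 ratios used a pseudocount of 1 CPM. Estimated counts were rounded for intervals, thinning, edgeR and DESeq2. Intervals were 95% Poisson or Clopper-Pearson and cover counting error only. All cells entered the sums, among them 8, 1 and 9 cells under 10000 counts in mESC, CPCC and CB, and no doublet caller was run. No 2 cells had identical values. Genes counted as 4-fold lower had 10 CPM or more in mESC. Clusters came from Seurat 5.3.0 in R 4.3.3 per culture, with a scale factor of 10000, mean limits of 0.0125 and 3, a dispersion limit of 0.5, a resolution of 0.6 as in the study, counts per cell regressed out, 10 principal components (a number set here) and the 7 genes left out. A cluster was called pluripotent-like when most pluripotent markers were detected in most of its cells and no other list led its top 10 genes. Likeness was Spearman's rho of CPM over cells of one culture with 430000 counts or more, among genes detected in 25% or more of them. Sequence windows and gene synonyms came from RefSeq (GRCm38.p6), in which 5 of the 7 genes had a promoter entry (Tdh and Calcoco2 had none), and shared words of 31 bases from GENCODE M21 transcripts.

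The genes, the gene lists and the comparisons were chosen with earlier results of these data known. Named were the 7 genes, the 3 lowest and 3 highest ratios of each list among genes with 10 CPM or more, the 3 closest genes by likeness, the nearest listed gene on each side, reference genes of cell states and the neighbours in rank. With 1 sample per group no test was run. Alternatives were TMM scaling (edgeR 4.0.16), DESeq2 1.42.0 size factors, equal weight per cell, pseudocounts of 0.1 and 10 CPM, a filter on cells, a total without mitochondrial and the 20 most abundant genes, each pool left out, and other cluster settings. The sums were tested on simulated data. Python 3.11.15 with pandas 2.3.3, scipy 1.17.1 and numpy 2.4.6 was used.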

Additional observations from a re-analysis of the deposited data

How the results depend on the processing

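Of 136 alternative log2 ratios of single genes, 135 kept the sign of the reported value, and the exception was Nr0b1 at 0.53 in CPCC without CPCC pool 2. The order of the genes in CPCC changed with the setting. With a pseudocount of 0.1 CPM 1700013H16Rik, at -7.63, lay below Spic, at -6.81, and with equal weight they were at -5.73 and -5.72. With 10 CPM Calcoco2, at -3.05, lay below Crxos, at -2.73. The median ratio in CPCC, -4.39, was -4.09 with equal weight per cell, -5.29 with a pseudocount of 0.1 CPM and -2.53 with 10 CPM, and ran from -5.62 (without CPCC pool 1) to -3.81 (without CPCC pool 2) with a pool left out. The median in CB, -5.90, was -6.04 with TMM, -6.09 with DESeq2 size factors, -6.13 with equal weight, -6.35 and -4.36 with pseudocounts of 0.1 and 10 CPM, and ran from -7.74 (without CB pool 2) to -5.29 (without CB pool 3). The count of 6 genes at least 4-fold lower in CPCC was 5 with equal weight and with 10 CPM, and 5 to 7 with a pool left out, and the count of 4 in CB held under every alternative run. The share of mESC cells with 4 or more genes was 92.6% among cells with 100000 counts and 2000 genes, and 82.4% to 92.8% with a pool left out. In CPCC it ran from 2.08% to 20.2% with a pool left out, and in CB it was 0% throughout. The share of CPCC counts in pluripotent-like cells, 98.4%, was 98.1% with 15 principal components (74 cells), 99.2% with 2000 genes by vst (83 cells) and 99.98% in 98 cells picked by 5 or more markers without clustering. A smaller pseudocount moves genes near 0 CPM most by construction, and for the other shifts the cause was not tested. No paired analysis was possible because each group is 1 sample. Depth limits the shares of cells, and with 1 sample per culture nothing here measures the spread between cultures, clones or derivations.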

Other observations

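Other genes differed between mESC and the 66 pluripotent-like CPCC cells, and those named here were chosen after their values were seen. Among the 12 lowest of 8649 genes, beside Spic, Crxos, Trpm1 and 1700013H16Rik, were Xlr4c, an X-linked lymphocyte-regulated gene, at a log2 ratio of -3.82 (1.40 against 32.9 CPM), Ptges, a prostaglandin E synthase, at -3.72, Nid1, a basement membrane protein, at -3.67 (12.1 against 166 CPM), and Fbp2, a fructose bisphosphatase, at -3.46. Nid1 and Ptges were higher in the CPCC culture as a whole than in these cells, at 108 and 19.3 CPM. They were still below their mESC levels of 166 and 59.2 CPM. At the other end, Etv4, an Ets factor downstream of FGF signalling, had 35.8 CPM against 0.0826 in mESC and was detected in 84.8% of the pluripotent-like CPCC cells and 1.40% of mESC cells. Dusp6, a phosphatase of the same pathway, had 77.4 against 3.02 CPM. The CPCC medium contained Fgf2 and the 2i medium of mESC blocks MEK, and medium and cell state cannot be told apart here.

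Tagln, a smooth muscle gene, had the highest ratio in these cells at 6.52, from 201.6 CPM against 1.21, but its median cell had 2.29 CPM and its highest 3669. In the 57 cells of pool 1 it had 217 CPM (6.62) and in the 9 cells of pool 2 only 2.98 CPM (0.85). A part of the cells of the cluster thus held most of the Tagln counts, and whether those captures held more than 1 cell was not tested. Peg10, an imprinted retrotransposon-derived gene, was spread more evenly, with 60.3 CPM, a median cell of 38.2 CPM and counts in 90.9% of the cells.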
